A study of Mus musculus and Mus musculus
Rattus norvegicus with 30 samples.

Results

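The 10 genes described here are the D-type cyclins Ccnd1, Ccnd2 and Ccnd3, the E-type cyclins Ccne1 and Ccne2, the inhibitors of cyclin-dependent kinases Cdkn1a, Cdkn1b, Cdkn2a and Cdkn2b, and Mdm2. They were chosen by gene symbol, with no threshold on their values. Each of the 10 has a row in every RNA table used, among 19919 genes shared by the tables of mouse embryonic stem cells (mESCs), 34923 genes of the mouse allele and 25245 genes of the rat allele of RMES cells. All 10 passed the filter on low counts in each of the 12 RNA comparisons below. ATAC-seq and Cdx2 ChIP-seq peaks that reach within 30 kb of each gene start were added.

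Cdx2 is a homeobox transcription factor, and the question was how its mouse (mCdx2) and rat (rCdx2) forms act on gene expression in cells of either genome. RNA-seq of mESCs covered 20 libraries in 10 groups of 2: WT cells, cells with forced expression of mCdx2 (labelled mCDX2 OE, here mCdx2-OE) or of rCdx2 (rCDX2 OE, here rCdx2-OE), and 7 lines that each express a mutant rCdx2. The mutants carry up to 3 changes towards the mouse protein: change 1 (R1) turns a tyrosine into a phenylalanine, change 2 (R2) an alanine into a serine, and change 3 (R3) removes an asparagine, and R12, R13, R23 and R123 combine them. RMES cells, made by fusing haploid mouse with haploid rat stem cells, gave 4 RNA libraries (2 labelled WT, 1 mCdx2-OE and 1 rCdx2-OE), in which reads were split by allele. All Cdx2 forms came from lentiviral transgenes switched on by doxycycline, given for 48 h in the mCdx2-OE and rCdx2-OE lines. The time used for the mutants was not given in the sources used here. The study describes its comparison as one of cells before and after doxycycline, whereas the labels say only WT. Whether the WT libraries came from uninduced cells of the same lines is not given per library, and if they did not, differences between lines and the effect of Cdx2 cannot be told apart. ATAC-seq of mESCs covered WT and mCdx2-OE with 1 library each, and ChIP-seq covered mCdx2-OE and rCdx2-OE with 1 library each in mESCs and in RMES cells. Nothing states that replicates came from separate cultures, so p-values measure only the spread between these samples, which may be technical.

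Cyclins are the regulatory subunits of cyclin-dependent kinases (CDKs). D-type cyclins pair with Cdk4 and Cdk6 and E-type cyclins with Cdk2, and both kinase complexes phosphorylate the retinoblastoma protein, which frees E2F factors to transcribe S-phase genes. The Ink4 proteins encoded by Cdkn2a and Cdkn2b block Cdk4 and Cdk6, the Cip/Kip proteins encoded by Cdkn1a (p21) and Cdkn1b (p27) bind cyclin-CDK complexes more widely, and Mdm2 is the ubiquitin ligase that degrades p53. Embryonic stem cells are known for a short G1 phase with high cyclin E and low Ink4 expression, and Cdkn2a also encodes Arf, an inhibitor of Mdm2, from an overlapping reading frame that gene counts do not separate.

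The WT libraries of mESCs held 74960057 and 94686029 counts and the 18 induced ones between 12698443 and 24315929. Levels are given as CPM, the counts scaled to library size by TMM. Mitochondrial genes took 1.73% and 1.63% of the counts in WT, 2.82% to 4.03% in mCdx2-OE and rCdx2-OE and 3.86% to 5.58% in the mutants, and the part of this shift in the mESC comparisons was not tested. Cdx2 stood at 1.36 and 1.21 CPM in WT, at 97.9 and 127 CPM in mCdx2-OE, at 70.4 and 67.0 CPM in rCdx2-OE and between 37.2 and 147 CPM in the mutants, where replicate 1 was above replicate 2 for each of the 7. In RMES cells the libraries labelled WT were not free of Cdx2 mRNA, with 129 and 127 CPM on the mouse and 453 and 440 CPM on the rat allele. The mCdx2-OE library of RMES cells held 968 CPM of Cdx2 on the mouse allele, and the rCdx2-OE library 880 CPM on the rat allele. The other allele lay below the libraries labelled WT, with 47.2 CPM on the rat allele in mCdx2-OE and 4.45 CPM on the mouse allele in rCdx2-OE. On each allele the 2 induced libraries thus lay on either side of those labelled WT. Pooled, they were not separated from WT for Cdx2 on the mouse (log2 1.93, adjusted p = 0.136) or the rat allele (log2 0.06, adjusted p = 0.942). This pooled test cannot say whether Cdx2 rose in either library. Since the libraries labelled WT held Cdx2 mRNA, the RMES comparisons are not ones of cells with against cells without it. In RMES cells mitochondrial genes took 2.32% and 2.65% of the mouse-allele counts in the libraries labelled WT and 0.0313% and 0.0259% in the induced ones. Their share of the rat-allele counts was 0.00594% and 0.00777% in the former and 14.3% and 14% in the latter. The RMES lines with and without induction therefore differed in which mitochondrial genome was read, and this difference and the effect of Cdx2 cannot be told apart. All 10 embryonic stem cell markers checked were at 1 CPM or more in every mESC group, their summed level running from 6026 to 6162 CPM in WT, from 3631 to 4184 CPM in mCdx2-OE and rCdx2-OE and from 4560 to 6106 CPM in the mutants. Markers of fibroblasts, a usual feeder layer, summed to 53.8 and 54.0 CPM in WT, between 15.5 and 17.2 CPM in mCdx2-OE and rCdx2-OE, where Lum and Dcn were at 0, and between 7.54 and 12.8 CPM in the mutants. In bulk RNA, fewer cells of a type and less RNA per cell cannot be told apart.

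Cdx2 ChIP peaks found in mESCs and RMES cells alike lay near Ccnd2, Ccne1, Ccne2 and the neighbours Cdkn2a and Cdkn2b. The sequences at the centre of those peaks are shown because they are the stretches of these loci that Cdx2 ChIP recovered. For each locus it is the shared peak with the most scaled mESC reads whose centre lies outside exons, and for Ccne1 also the peak nearest its start, which was called in mESCs alone. The 300 bases are the plus strand of GRCm38 (mm10), from RefSeq. Capitals mark the 7-letter motifs CAATAAA and CCATAAA on either strand, letters known from Cdx2 sites.
Ccnd2, 13 kb upstream, in an intron of 9330179D12Rik, chr6:127165029-127165328: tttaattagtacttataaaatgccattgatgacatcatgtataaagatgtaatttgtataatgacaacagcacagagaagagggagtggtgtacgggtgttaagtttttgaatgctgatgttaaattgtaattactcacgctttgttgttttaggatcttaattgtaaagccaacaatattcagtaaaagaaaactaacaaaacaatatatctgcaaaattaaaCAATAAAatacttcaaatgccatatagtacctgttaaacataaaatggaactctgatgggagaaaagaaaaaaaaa
Ccne1, 1.79 kb upstream, intergenic, chr7:38109172-38109471: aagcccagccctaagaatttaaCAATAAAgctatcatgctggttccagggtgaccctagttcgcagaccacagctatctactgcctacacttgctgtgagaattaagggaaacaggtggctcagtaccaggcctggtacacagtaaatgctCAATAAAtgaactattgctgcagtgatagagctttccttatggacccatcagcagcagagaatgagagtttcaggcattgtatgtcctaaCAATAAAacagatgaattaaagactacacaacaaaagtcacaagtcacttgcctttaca
Ccne1, 30.0 kb downstream of its start, intergenic, chr7:38077345-38077644: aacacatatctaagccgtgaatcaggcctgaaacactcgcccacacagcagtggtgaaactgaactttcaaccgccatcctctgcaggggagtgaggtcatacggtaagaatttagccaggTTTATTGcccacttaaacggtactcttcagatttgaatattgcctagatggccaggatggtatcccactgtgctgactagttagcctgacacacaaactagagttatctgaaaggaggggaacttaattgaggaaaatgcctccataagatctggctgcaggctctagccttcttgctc
Ccne2, 23.7 kb upstream, in an intron of Trp53inp1, chr4:11167521-11167820: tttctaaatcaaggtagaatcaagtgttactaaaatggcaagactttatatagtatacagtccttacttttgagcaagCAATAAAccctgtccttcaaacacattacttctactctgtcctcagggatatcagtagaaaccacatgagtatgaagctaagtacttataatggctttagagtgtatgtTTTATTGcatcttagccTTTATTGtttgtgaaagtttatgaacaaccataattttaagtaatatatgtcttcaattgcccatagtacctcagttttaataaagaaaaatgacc
Cdkn2a and Cdkn2b, between their starts, intergenic, chr4:89301278-89301577: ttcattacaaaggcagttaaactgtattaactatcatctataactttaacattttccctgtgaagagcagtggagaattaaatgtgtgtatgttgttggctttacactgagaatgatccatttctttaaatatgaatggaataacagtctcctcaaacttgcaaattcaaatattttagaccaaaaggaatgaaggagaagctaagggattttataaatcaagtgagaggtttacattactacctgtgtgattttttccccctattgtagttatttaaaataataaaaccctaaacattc
The Ccne1 window nearest the gene and the Ccne2 window each held 3 motifs, and the Ccnd2 window and the distant Ccne1 window held 1 each. The window between Cdkn2a and Cdkn2b held 0, but the whole mESC peak there, of 619 bases, held 1 outside the window. Among the 18 mESC ChIP peaks within 30 kb of these genes, 11 windows (61.1%) held a motif, against 43.7% of all 91665 mESC ChIP windows, 10.6% of ATAC windows and 7.2% of RefSeq promoters of the same length. Of the 12 RMES ChIP peaks near the genes 6 (50.0%) held a motif, against 44.3% of all. RefSeq promoter windows were at hand for 7 of the genes, in 10 rows, and 0 of these held the motifs.

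In mESCs expressing mCdx2, Ccnd1 and Ccne1 fell and Cdkn2b rose by more than 2-fold, while smaller rises were seen in Ccnd3, Ccne2, Cdkn1a, Cdkn1b, Cdkn2a and Mdm2. Expression of rCdx2 gave values that the test did not separate from those of mCdx2. The mutants differed from both, with less loss of Ccnd1, a loss of Ccnd2 and a smaller rise of Cdkn2b and Mdm2. In RMES cells Ccnd1 fell on both alleles, Ccnd2 rose on both, and Cdkn2a and Cdkn2b rose more than 10-fold on the rat allele. A gene was called against WT at an adjusted p under 0.05 (edgeR quasi-likelihood test, Benjamini-Hochberg over all genes) and a change over 2-fold, and in other comparisons at that p alone.

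For mCdx2-OE against WT, 3 of the 10 genes were called, 1 higher and 2 lower, where 33.4% of all 16000 genes tested were called. At any fold, 9 of 10 passed the test against 69.7% of all genes, 7 of them higher (34.0% of all genes) and 2 lower (35.8%). For rCdx2-OE, which shares the WT libraries, 4 were called (34.5% of all genes) and 9 passed at any fold (70.6%). For the mean of the 7 mutants, 4 were called (26.2%) and 10 passed at any fold (73.9%). The median log2 change of the 10 was 0.40, 0.44 and 0.32 in these comparisons, beside -0.03, -0.04 and -0.03 for all genes. Shares called among the 10 at any fold lay above the background in each, and those over 2-fold on either side of it. Scaling by total counts alone raised the all-gene median by 0.18 for mCdx2-OE and 0.19 for rCdx2-OE and the share of calls that were higher from 55.2% to 65.2% and 64.6%.

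**Figure D1:**
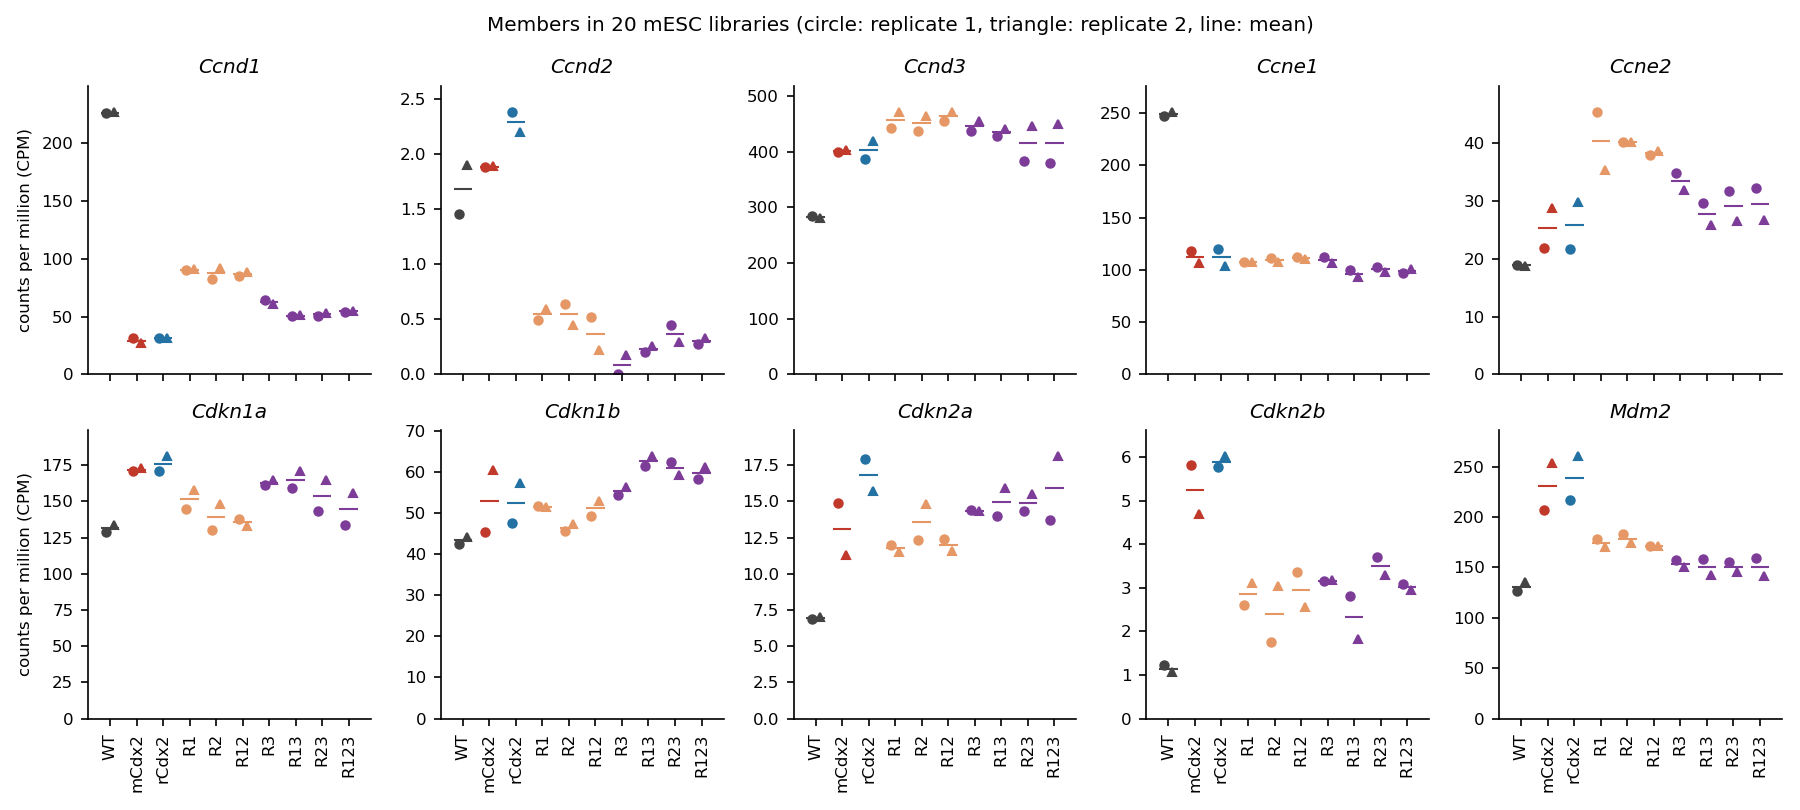
Level of each of the 10 genes (CPM, y axis from 0) in the 20 mESC RNA libraries, 1 point a library, with the constructs along the x axis. Ccnd1 lies at 226 and 227 CPM in WT, at 27.1 to 31.4 CPM in mCdx2-OE and rCdx2-OE and at 50.3 to 92.1 CPM in the mutants, and Ccnd2 is lower in every mutant library than in the other 6.

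Ccnd1, the D-type cyclin most tied to mitogen signals, changed most of the 10 in mCdx2-OE and in rCdx2-OE. Its level was 226 and 227 CPM in WT, 31.2 and 27.1 CPM in mCdx2-OE, and 31.0 and 31.4 CPM in rCdx2-OE. R1, R2 and R12 held between 82.9 and 92.1 CPM, R3 64.2 and 60.8 CPM, and R13, R23 and R123 between 50.3 and 54.8 CPM. No induced library reached WT, none of the mutant libraries overlapped mCdx2-OE or rCdx2-OE, and the 8 libraries with change 3 lay below the 6 without it. Ccnd1 fell 7.74-fold in mCdx2-OE (log2 -2.95 ± 0.08, SE, adjusted p = 5.84e-14) and 7.25-fold in rCdx2-OE (log2 -2.86 ± 0.08, adjusted p = 4.76e-14). In the mutants it fell 3.37-fold (log2 -1.75 ± 0.05, adjusted p = 2.71e-14).

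Ccnd2, a D-type cyclin, was close to the limit of detection. It had 103 and 166 counts in WT (1.46 and 1.90 CPM), 45 and 29 counts in mCdx2-OE (1.88 and 1.89 CPM) and 62 and 30 counts in rCdx2-OE (2.38 and 2.20 CPM). The 14 mutant libraries held between 0 and 12 counts, none above 0.642 CPM. The R3 libraries, at 0 and 3 counts, held too few to give a level. WT, mCdx2-OE and rCdx2-OE thus lay apart from the mutants with no overlap. Ccnd2 differed from WT by 0.16 ± 0.30 on the log2 scale in mCdx2-OE (interval of the fold 0.724 to 1.73, adjusted p = 0.638), a sign that turned when all libraries were thinned to 12698443 counts or without WT replicate 1, and by 0.45 ± 0.29 in rCdx2-OE (adjusted p = 0.174). It fell 5.49-fold in the mutants (log2 -2.46 ± 0.23, adjusted p = 8.94e-08).

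Ccnd3, the most abundant D-type cyclin of mCdx2-OE and rCdx2-OE mESCs per kb of transcript, ran the other way. It lay at 285 and 280 CPM in WT, 399 and 403 CPM in mCdx2-OE, 387 and 420 CPM in rCdx2-OE, and between 380 and 471 CPM in the mutants, all above WT. It rose 1.42-fold in mCdx2-OE (log2 0.50 ± 0.09, adjusted p = 7.29e-05), 1.43-fold in rCdx2-OE (adjusted p = 6.22e-05) and 1.56-fold in the mutants (adjusted p = 3.54e-07).

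Of the E-type cyclins, which drive entry into S phase, Ccne1 fell and Ccne2 rose. Ccne1 lay at 247 and 251 CPM in WT, 118 and 107 CPM in mCdx2-OE, 120 and 104 CPM in rCdx2-OE, and between 93.5 and 112 CPM in the mutants. The induced groups overlapped each other and none reached WT. Ccne1 fell 2.22-fold in mCdx2-OE (log2 -1.15 ± 0.07, adjusted p = 1.11e-09) and in rCdx2-OE (adjusted p = 1.03e-09), and 2.38-fold in the mutants (log2 -1.25 ± 0.05, adjusted p = 2.34e-12). Scaled by total counts alone, its change was -0.96 in mCdx2-OE and rCdx2-OE, short of 2-fold. Ccne2 lay at 18.9 and 18.8 CPM in WT, 21.8 and 28.8 CPM in mCdx2-OE, 21.7 and 29.9 CPM in rCdx2-OE, and between 25.9 and 45.4 CPM in the mutants. Replicates 1 and 2 of mCdx2-OE and rCdx2-OE lay further apart than in WT, and every induced library was above WT. Ccne2 rose 1.34-fold in mCdx2-OE (log2 0.42 ± 0.16, adjusted p = 0.0278), 1.36-fold in rCdx2-OE (adjusted p = 0.0211) and 1.79-fold in the mutants (log2 0.84 ± 0.12, adjusted p = 1.33e-05).

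The Cip/Kip inhibitors rose by less than 1.5-fold. Cdkn1a, a main p53 target, lay at 129 and 134 CPM in WT, 171 and 173 CPM in mCdx2-OE, 171 and 181 CPM in rCdx2-OE, and between 130 and 171 CPM in the mutants. The mutants overlapped WT, whereas mCdx2-OE and rCdx2-OE did not. Cdkn1a rose 1.31-fold in mCdx2-OE (log2 0.39 ± 0.09, adjusted p = 0.00104), 1.33-fold in rCdx2-OE (adjusted p = 0.000558) and 1.14-fold in the mutants (adjusted p = 0.0184). Cdkn1b lay at 42.6 and 44.2 CPM in WT, 45.3 and 60.5 CPM in mCdx2-OE, 47.7 and 57.3 CPM in rCdx2-OE, and between 45.7 and 63.8 CPM in the mutants. Every induced library was above WT, some by little. Cdkn1b rose 1.21-fold in mCdx2-OE (log2 0.28 ± 0.11, adjusted p = 0.0296), 1.20-fold in rCdx2-OE (adjusted p = 0.0352) and 1.27-fold in the mutants (adjusted p = 0.00123).

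The Ink4 inhibitors rose more, from low levels. Cdkn2a lay at 6.85 and 7.04 CPM in WT, 14.9 and 11.3 CPM in mCdx2-OE, 17.9 and 15.7 CPM in rCdx2-OE, and between 11.5 and 18.1 CPM in the mutants, all above WT. It rose 1.90-fold in mCdx2-OE (log2 0.93 ± 0.15, adjusted p = 2.95e-05), 2.43-fold in rCdx2-OE (log2 1.28 ± 0.14, adjusted p = 7.77e-07) and 2.00-fold in the mutants (log2 1.0 ± 0.11, adjusted p = 6.88e-07). In mCdx2-OE it passed 2-fold without replicate 2 (log2 1.1), and in the mutants, just under 2-fold, it passed without WT replicate 2, replicate 1 of R2, R13, R23 or R123, or replicate 2 of R1 or R12 (log2 1.0 to 1.03). Cdkn2b had 86 and 93 counts in WT (1.22 and 1.06 CPM), 139 and 72 counts in mCdx2-OE (5.81 and 4.68 CPM) and 150 and 82 counts in rCdx2-OE (5.77 and 6.01 CPM). The mutants lay between 1.76 and 3.71 CPM, above WT and below mCdx2-OE and rCdx2-OE in every library. Cdkn2b rose 4.64-fold in mCdx2-OE (log2 2.21 ± 0.22, adjusted p = 1.96e-07), 5.15-fold in rCdx2-OE (log2 2.36 ± 0.22, adjusted p = 8.07e-08) and 2.51-fold in the mutants (log2 1.33 ± 0.18, adjusted p = 4.08e-06).

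Mdm2 lay at 127 and 135 CPM in WT, 207 and 254 CPM in mCdx2-OE, 217 and 260 CPM in rCdx2-OE, and between 141 and 183 CPM in the mutants. Its order was WT, mutants, then mCdx2-OE and rCdx2-OE, with no overlap between these 3 sets. It rose 1.76-fold in mCdx2-OE (log2 0.81 ± 0.10, adjusted p = 2.59e-06), 1.82-fold in rCdx2-OE (adjusted p = 1.34e-06) and 1.22-fold in the mutants (log2 0.29 ± 0.08, adjusted p = 0.003). Scaled by total counts alone, the rise in rCdx2-OE passed 2-fold (log2 1.04).

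**Figure D2:**
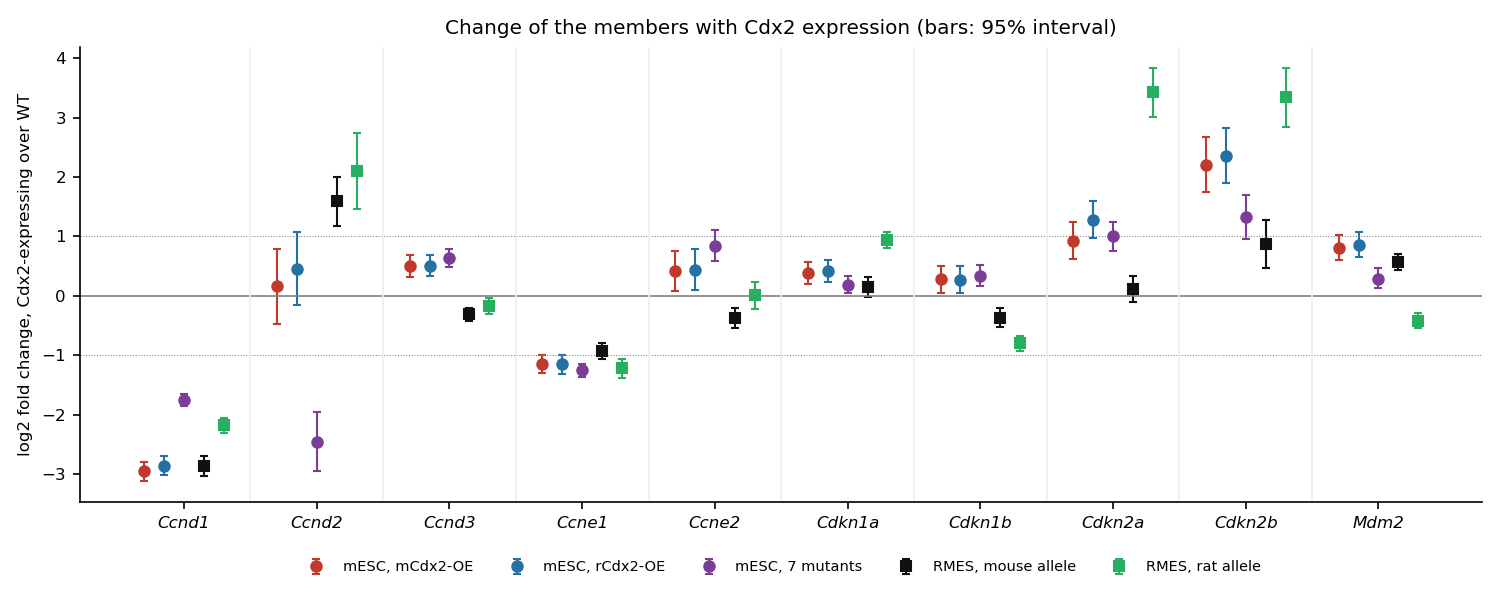
Log2 fold change (y axis) of each of the 10 genes over WT in 5 comparisons: mCdx2-OE, rCdx2-OE and the 7 mutants in mESCs, and the mouse and rat alleles of RMES cells. Points are fitted changes and bars their 95% intervals. Ccnd1 lies below 0 in all 5, Ccnd2 above 0 in RMES cells and at -2.46 in the mutants, and Cdkn2a and Cdkn2b at 3.43 and 3.34 on the rat allele. Scaled by total counts alone, Ccnd3 on both RMES alleles and Ccne2 and Cdkn1b on the mouse allele change sign.

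Per kb of transcript, the order of the levels shifted with Cdx2. In WT mESCs it ran from Ccne1 (103 CPM per kb) through Cdkn1a (59.2), Ccnd1 (48), Ccnd3 (32.2), Mdm2 (25.8), Cdkn1b (9.54), Cdkn2a (5.92), Ccne2 (5.39) and Cdkn2b (0.819) to Ccnd2 (0.178 CPM per kb), and no neighbours overlapped between libraries. In mCdx2-OE Cdkn1a came first at 77.4 CPM per kb. Ccne1, Ccnd3 and Mdm2 followed at 46.5, 45.7 and 45.4 CPM per kb and could not be ordered, since their libraries overlapped. Ccnd1 had dropped to place 8, at 6.19 CPM per kb, overlapping Ccne2 at 7.24 CPM per kb.

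Levels in mCdx2-OE were compared with those in rCdx2-OE directly. None of the 10 genes was called (0 of 10), where 3 of 16000 genes (0.0187%) were. By DESeq2 0 of the 10 passed as well, against 19 of all genes. At an unadjusted p under 0.05, only Cdkn2a would pass (log2 -0.35, interval -0.66 to -0.04, edgeR adjusted p = 0.899), lower in mCdx2-OE. The 95% intervals of the fold ran from 0.512 to 1.31 for Ccnd2, the widest, and from 0.897 to 1.12 for Ccne1. For Ccnd1 the interval was 0.835 to 1.05, for Cdkn2b 0.657 to 1.23 and for Mdm2 0.834 to 1.12, so differences beyond these bounds were not seen.

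Levels were then compared among all 9 Cdx2 constructs jointly. Cdx2 itself spanned 2.23-fold (adjusted p = 0.195), and passed with the replicate number as a block (adjusted p = 0.00958). In this test 7 of the 10 genes were called, against 56.9% of all genes. Ccnd3 (adjusted p = 0.228), Ccne1 (adjusted p = 0.0792) and Cdkn2a (adjusted p = 0.0715) were not. Ccnd1 had the smallest p (adjusted p = 1.21e-10), with 3.10-fold between its highest and lowest construct, and Mdm2 spanned 1.59-fold (adjusted p = 5.06e-05). Cdkn1b (1.35-fold, adjusted p = 0.0421) lost its call when any of the 14 mutant libraries was left out, with adjusted p between 0.0544 and 0.106. Cdkn2a gained one without mCdx2-OE replicate 1, mCdx2-OE replicate 2 or R123 replicate 1 (adjusted p 0.0259, 0.0475 and 0.024), and Ccne1 without rCdx2-OE replicate 2 (adjusted p = 0.0275). Among the 7 mutants alone 2 remained past the test, Ccnd1 (1.78-fold, adjusted p = 3.86e-07) and Ccne2 (1.45-fold, adjusted p = 0.0473), against 22.5% of all genes.

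The mutants were set against rCdx2-OE, from which they were made, a comparison chosen after the values were seen. In it 7 of the 10 genes were called, against 55.6% of all genes. Ccnd1 was 2.15-fold higher in the mutants (log2 1.11 ± 0.06, adjusted p = 3.68e-10) and Ccne2 1.32-fold higher (adjusted p = 0.0142). Ccnd2 was 7.51-fold lower (log2 -2.91 ± 0.27, adjusted p = 1.68e-07), Cdkn2b 2.05-fold lower (log2 -1.04 ± 0.16, adjusted p = 4.66e-05) and Mdm2 1.48-fold lower (adjusted p = 6.42e-06). Cdkn1a was 1.17-fold lower (adjusted p = 0.00887) and Cdkn2a 1.22-fold lower (adjusted p = 0.0379). Without rCdx2-OE replicate 1 the calls of Ccne2 (adjusted p = 0.375) and Cdkn2a (adjusted p = 0.421) were lost, and without replicate 2 that of Cdkn1a (adjusted p = 0.124). The Cdkn2a call was also lost without R2 replicate 1, R13 replicate 1, R3 replicate 2 or R12 replicate 2 (adjusted p 0.0509 to 0.0581), and Ccne1 gained one without rCdx2-OE replicate 2 (log2 -0.19, adjusted p = 0.0289). Cdx2 itself was not separated between these groups (log2 0.10 ± 0.37, adjusted p = 0.848, and 0.979 with the replicate number as a block). Summed trophoblast stem cell markers lay between 217 and 344 CPM in the mutants, 643 and 870 CPM in mCdx2-OE and rCdx2-OE, and 195 and 196 CPM in WT, and their part in these differences was not tested. Any difference in induction time or in the making of the lines cannot be told apart from the effect of the changes.

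Each amino acid change was tested over the 16 libraries of rCdx2-OE and the mutants, where it is present in 8 and absent from 8. These are 4 constructs with and 4 without it, of 2 libraries each. Libraries of the same construct were treated as independent, so the p-values do not measure the spread between lines. For change 1 and for change 2, 0 of 10 genes were called and 0.0% of all 15114 genes, while DESeq2 called 24 and 2 of all genes and 0 of the 10. The fit, additive in the 3 changes, includes rCdx2-OE, from which the mutants differed in 55.6% of all genes. Over the 14 mutant libraries alone 4 of all genes were called for change 1. These low counts do not show that either change lacks an effect. At an unadjusted p under 0.05 Cdkn1a passed for change 2 (log2 -0.19 ± 0.05, adjusted p = 0.471) and none of the 10 for change 1. For change 3, 4 of 10 were called, against 36.6% of all genes. Cdkn1b was 1.18-fold higher with the change (log2 0.24 ± 0.05, adjusted p = 0.00157) and Mdm2 1.25-fold lower (log2 -0.33 ± 0.07, adjusted p = 0.00155). For Mdm2 the arm without the change includes rCdx2-OE at 217 and 260 CPM. Among the mutants alone its library medians were 153 CPM with and 173 CPM without change 3. Ccne1 was 1.09-fold lower (adjusted p = 0.0279), a call lost without R12 replicate 1 or 2, R13 replicate 1 or 2, or R23 replicate 2 (adjusted p 0.0531 to 0.0688). Ccnd2 was 3.31-fold lower (log2 -1.73 ± 0.49, adjusted p = 0.0118), which failed after thinning all libraries to 12698443 counts (adjusted p = 0.0672). For Ccnd2 the arm without the change includes rCdx2-OE at 2.38 and 2.20 CPM. Among the mutants alone the library medians of Ccnd2 were 0.264 CPM with (n = 8, SD 0.129) and 0.504 CPM without change 3 (n = 6, SD 0.147). This difference was not tested because the filter on low counts removed the gene.

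The additive fit of change 3 included rCdx2-OE, whose Ccnd1 lay below that of every mutant. Ccnd1 was 1.30-fold lower with change 3 in this fit (log2 -0.37 ± 0.20, adjusted p = 0.147), and it passed without rCdx2-OE replicate 1 (log2 -0.52, adjusted p = 0.0196) or replicate 2 (log2 -0.51, adjusted p = 0.0275). Over the 14 mutant libraries alone, a fit added after the values were seen, Ccnd1 was lower with change 3 by a log2 difference of -0.72 ± 0.05 (adjusted p = 2.89e-09), where 51.8% of all genes were called. Ccne2 was then lower (log2 -0.44 ± 0.07, adjusted p = 3.34e-05) and Cdkn2a higher (log2 0.29 ± 0.08, adjusted p = 0.00486), and Ccnd2 was left out by the filter on low counts. These p-values, too, do not measure the spread between lines. In the fit with rCdx2-OE, Ccne2 passed without rCdx2-OE replicate 1 (adjusted p = 0.00458) or R3 replicate 1 (adjusted p = 0.049). Cdx2 mRNA was also lower with change 3 (log2 -0.74 ± 0.26, adjusted p = 0.0367, and 0.000619 with the replicate number as a block), and its part in these differences was not tested.

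In RMES cells the mCdx2-OE and rCdx2-OE libraries were taken as replicates of induction, as in the study. On the mouse allele 2 of 10 genes were called (44.5% of all 16887 genes) and 8 passed at any fold (81.9%). On the rat allele 5 of 10 were called (42.5% of all 14627 genes) and 9 passed at any fold (82.5%). The median log2 change of the 10 was -0.10 on the mouse and -0.08 on the rat allele, beside 0.08 and 0.07 for all genes. Scaling by total counts alone raised the all-gene medians by 0.42 and 0.21 and the share of calls that were higher from 63.8% to 77.6% and from 66.6% to 75.8%. Summed embryonic stem cell markers went from between 8166 and 8265 CPM to between 3127 and 3181 CPM on the mouse allele, and from between 4535 and 4594 CPM to between 1619 and 1721 CPM on the rat allele. Trophoblast stem cell markers went from between 217 and 224 CPM to between 965 and 1113 CPM on the mouse and from between 376 and 394 CPM to between 1026 and 1136 CPM on the rat allele. Posterior mesoderm markers went from between 326 and 358 CPM to between 20.2 and 23.4 CPM on the mouse and from between 72.2 and 76.6 CPM to between 3.71 and 5.71 CPM on the rat allele. The part of these shifts in the changes of the 10 genes was not tested.

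**Figure D3:**
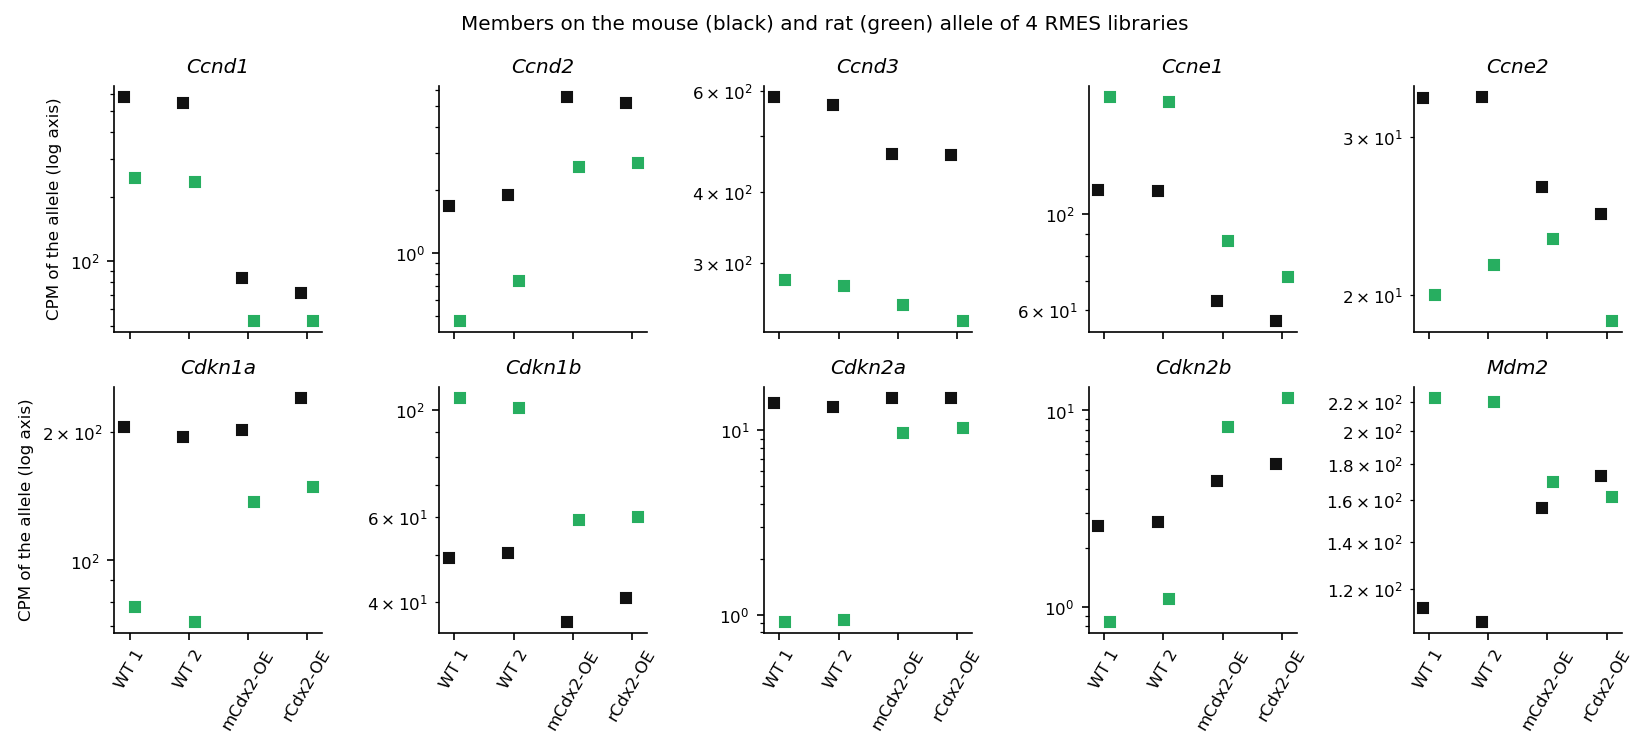
Level of the 10 genes (CPM of the allele, log axis) in the 4 RMES libraries, the mouse allele in black and the rat allele in green. Cdkn2a lies between 13.4 and 15.0 CPM on the mouse allele in all 4 libraries, whereas on the rat allele it goes from 0.914 and 0.934 CPM to 9.68 and 10.3 CPM.

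Ccnd1 on the mouse allele lay at 581 and 548 CPM in the libraries labelled WT and at 83.5 CPM in mCdx2-OE and 71.3 CPM in rCdx2-OE. Its rat-allele level was 244 and 235 CPM against 53 and 52.7 CPM. It fell on both alleles, 7.29-fold on the mouse (log2 -2.87 ± 0.08, adjusted p = 9.66e-12) and 4.53-fold on the rat (log2 -2.18 ± 0.06, adjusted p = 1.09e-13). Ccnd2 went from 1.67 and 1.90 CPM to 5.53 and 5.21 CPM on the mouse allele, and from 13 and 22 counts to 96 and 103 counts on the rat allele. It rose 3.01-fold on the mouse (log2 1.59 ± 0.19, adjusted p = 5.16e-06) and 4.29-fold on the rat allele (log2 2.10 ± 0.30, adjusted p = 9.6e-06), and no induced library overlapped those labelled WT. Ccnd3 went from 586 and 567 CPM to 465 and 463 CPM on the mouse and from 280 and 273 CPM to 253 and 237 CPM on the rat allele. Its log2 change was -0.31 ± 0.05 on the mouse (adjusted p = 0.000138) and -0.17 ± 0.06 on the rat allele (adjusted p = 0.0153), turning to 0.11 and 0.04, neither past the test, with total counts alone.

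Ccne1 went from 114 and 113 CPM to 63.0 and 56.5 CPM on the mouse and from 187 and 182 CPM to 86.7 and 71.5 CPM on the rat allele. It fell 1.90-fold on the mouse (log2 -0.93 ± 0.06, adjusted p = 2.14e-08) and 2.33-fold on the rat allele (log2 -1.22 ± 0.08, adjusted p = 8.11e-10). Without the mCdx2-OE library its mouse-allele change was -1.02 and over 2-fold. Ccne2 went from 33.1 and 33.2 CPM to 26.4 and 24.6 CPM on the mouse allele (log2 -0.38 ± 0.08, adjusted p = 0.000608, and 0.04 and not past the test with total counts alone). On the rat allele it went from 20 and 21.6 CPM to 23.1 and 18.7 CPM (log2 0.01 ± 0.11, interval of the fold 0.858 to 1.18, adjusted p = 0.943), the induced libraries lying on either side.

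Cdkn1a went from 206 and 195 CPM to 202 and 241 CPM on the mouse allele, where the groups overlapped (log2 0.15 ± 0.08, adjusted p = 0.0994). It rose 1.91-fold on the rat allele, from 77.7 and 71.8 CPM to 137 and 149 CPM (log2 0.94 ± 0.06, adjusted p = 2.23e-09). Cdkn1b went from 49.4 and 50.5 CPM to 36.4 and 40.8 CPM on the mouse allele (log2 -0.37 ± 0.07, adjusted p = 0.000416, and 0.05 and not past the test with total counts alone). It fell 1.74-fold on the rat allele, from 106 and 101 CPM to 59.1 and 60.1 CPM (log2 -0.80 ± 0.06, adjusted p = 7.32e-09). In mESCs, by contrast, every induced library lay above WT for Cdkn1b, a difference between the cell types that was not tested.

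Cdkn2a lay at 14.1 and 13.4 CPM in the libraries labelled WT and at 14.9 and 15.0 CPM in the induced ones on the mouse allele (log2 0.12 ± 0.10, interval of the fold 0.936 to 1.27, adjusted p = 0.269). On the rat allele it went from 25 and 28 counts to 363 and 394 counts. There it rose 10.8-fold (log2 3.43 ± 0.20, adjusted p = 2.82e-10). Cdkn2b went from 2.59 and 2.7 CPM to 4.39 and 5.36 CPM on the mouse allele, a 1.84-fold rise (log2 0.88 ± 0.19, adjusted p = 0.000772) that passed 2-fold without the mCdx2-OE library (log2 1.0) or with total counts alone (log2 1.30). On the rat allele it went from 23 and 33 counts to 310 and 443 counts and rose 10.1-fold (log2 3.34 ± 0.23, adjusted p = 3.01e-09). Mdm2 went from 113 and 108 CPM to 156 and 173 CPM on the mouse allele and rose 1.49-fold (log2 0.57 ± 0.06, adjusted p = 1.8e-06). Its rat-allele level went from 223 and 220 CPM to 170 and 162 CPM and fell 1.33-fold (log2 -0.42 ± 0.06, adjusted p = 8.54e-06). The Mdm2 groups did not overlap on either allele.

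The response on the mouse allele was tested against that on the rat allele, with the library as a block and genes paired by symbol. In this test 9 of 10 genes were called, against 62.1% of all 13605 genes. The signed log2 change was higher on the mouse allele for 3 of them and lower for 6. The largest differences were those of Cdkn2a (log2 -3.33 ± 0.21, mouse minus rat, adjusted p = 1.55e-12) and Cdkn2b (log2 -2.48 ± 0.27, adjusted p = 2.91e-08). Mdm2 (log2 0.96 ± 0.06, adjusted p = 8.36e-13), Cdkn1b (log2 0.40 ± 0.06, adjusted p = 9.09e-06) and Ccne1 (log2 0.28 ± 0.04, adjusted p = 5.39e-06) had the higher signed change on the mouse allele. There Mdm2 rose, while Cdkn1b and Ccne1 fell less than on the rat allele. Cdkn1a (log2 -0.82 ± 0.05), Ccnd1 (log2 -0.71 ± 0.06), Ccne2 (log2 -0.41 ± 0.11) and Ccnd3 (log2 -0.16 ± 0.04) had the lower signed change on the mouse allele. Of these, Ccnd1 and Ccnd3 fell on both alleles, and more so on the mouse allele. Ccnd2 was not separated (log2 -0.54 ± 0.36, interval of the fold 0.412 to 1.15, adjusted p = 0.197). Each of these values was unchanged in call and sign with total counts alone.

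Within RMES cells labelled WT, per kb of transcript, the mouse allele had Ccnd1 first (120 CPM per kb) and Ccnd2 last (0.189), and the rat allele Ccnd3 first (145 CPM per kb) and Cdkn2b last (0.172). Cdkn2a stood at 11.7 CPM per kb on the mouse allele and 1.01 on the rat. In induced RMES cells the rat-allele counts of Cdkn2a thus came closer to the mouse-allele ones, 9.68 and 10.3 CPM beside 14.9 and 15.0 CPM.

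Other genes of the same machinery were summarised from 6 lists of 76 genes. For mCdx2-OE against WT, of 15 CDKs, other cyclins and their regulators tested 4 rose, 7 fell and 4 did not pass (median log2 -0.18), and Cdk6, the partner of D-type cyclins, fell from 72.3 and 73.8 CPM to 16.9 and 14.3 CPM (log2 -2.22 ± 0.13, adjusted p = 2.92e-10). All 4 other CDK inhibitors rose (median 1.71). Among them Cdkn1c (p57) went from 2.3 and 2.82 CPM to 11.8 and 13.1 CPM (log2 2.28 ± 0.17, adjusted p = 7.4e-09), whereas in the mutants it lay between 1.31 and 3.87 CPM, overlapping WT (log2 -0.24, adjusted p = 0.125). Cdkn3, a phosphatase of CDKs, went from 3.71 CPM in both WT libraries to 16.5 and 14.6 CPM (log2 2.07 ± 0.15, adjusted p = 6.49e-09). Of 13 retinoblastoma and E2F genes 5 rose, 6 fell and 2 did not pass (median -0.07), with Rb1 higher (log2 1.97 ± 0.18, adjusted p = 5.43e-08) and E2f2 lower (log2 -1.19 ± 0.18, adjusted p = 1.89e-05). Of 8 genes that degrade cyclins and inhibitors 2 rose, 5 fell and 1 did not pass (median -0.31). Of 20 genes of p53 and its targets 10 rose, 5 fell and 5 did not pass (median 0.45), Btg2 rising (log2 1.96 ± 0.15, adjusted p = 6.11e-09) and Bax falling (log2 -1.29 ± 0.15, adjusted p = 1.51e-06). Of 15 replication and mitosis genes 2 rose, 6 fell and 7 did not pass (median -0.12), with Mki67 higher (log2 1.25 ± 0.11, adjusted p = 4.26e-08) and Pcna lower (log2 -1.05 ± 0.12, adjusted p = 1.52e-06). Of all genes 5436 rose, 5722 fell and 4842 did not pass (median -0.03).

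In RMES cells 13 of the 15 replication and mitosis genes fell and 2 rose on each allele (medians -0.55 and -0.69), where 6588 of all 16887 genes fell and 7235 rose on the mouse allele and 5708 of 14627 fell and 6361 rose on the rat allele. Both medians lie on the TMM scale, and with total counts alone the median of all genes was higher by 0.42 on the mouse and 0.21 on the rat allele. Cdk6 fell on the mouse allele (log2 -3.03, adjusted p = 1.1e-12) and was not separated on the rat allele (log2 0.76, adjusted p = 0.111). In the mutants against rCdx2-OE, where 4157 of all 16000 genes were higher and 4746 lower, 12 of 15 replication and mitosis genes were higher and 0 lower (median 0.34), and 4 of 20 genes of p53 and its targets were higher and 12 lower (median -0.39). Of the CDKs and other cyclins 8 of 15 were higher and 1 lower, of the retinoblastoma and E2F genes 8 of 13 higher and 2 lower, of the degradation genes 3 of 8 higher and 3 lower, and of the other CDK inhibitors 0 of 4 higher and 3 lower.

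Over the 20 mESC libraries, the gene whose centred log2 CPM lay nearest that of Ccnd1 was Sulf1, at a root mean square difference of 0.179 where Ccnd1 itself had a root mean square deviation of 0.807. Cnn2 was nearest to Ccnd2 (0.227 of 0.763), Tex261 to Ccnd3 (0.0572 of 0.205), Neurl4 to Ccne1 (0.0894 of 0.378) and Nexmif to Ccne2 (0.108 of 0.35). Among the inhibitors Gipc1 was nearest to Cdkn1a (0.0842 of 0.153), Ago3 to Cdkn1b (0.0623 of 0.178), Ypel5 to Cdkn2a (0.129 of 0.343) and Uvssa to Cdkn2b (0.219 of 0.543), and Gpkow was nearest to Mdm2 (0.0837 of 0.273). These are descriptions over 11897 genes, and the libraries share their groups.

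Chromatin near the genes was read from 1 ATAC library of WT and 1 of mCdx2-OE mESCs, with 6109353 and 8277850 reads in 122350 peaks. There is no replicate, so ratios carry only counting intervals, and a peak was called opened or closed at over 2-fold and at least 40 scaled reads. Within 30 kb of the gene starts 2 peaks were opened and 16 closed, where 15.4% of all 59789 peaks with enough reads were opened and 22.4% closed. How many peaks near the genes had enough reads was not counted, so the 2 and 16 cannot be turned into shares to set beside these. Opened peaks lay near 1 of the 10 genes, against 30.0% of 19599 genes, and closed ones near 6 of 10, against 41.6%. Both opened peaks were at Ccne1, a gene that fell: 1 centred 23.3 kb upstream went from 42 to 108 scaled reads, and 1 centred 30.1 kb downstream of its start went from 9 to 75 (ratio 7.27, interval 3.85 to 19.0). The peak over the start of Ccne1 went from 278 to 363 scaled reads.

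The peak over the start of Ccnd3 went from 164 to 55 scaled reads (ratio 0.339, interval 0.244 to 0.454), while its mRNA rose. Of the 18 ATAC peaks within 30 kb of Ccnd3 7 were closed, of the 16 of Cdkn1a 4 and of the 7 of Cdkn1b 2. The peak over the start of Ccnd1 went from 101 to 61 scaled reads (ratio 0.605, interval 0.432 to 0.833), short of the 2-fold limit, and 1 of its 6 peaks was closed. At the start of Ccne2 the peak went from 268 to 537 scaled reads (ratio 2.00, interval 1.72 to 2.34), just short of that limit. The peaks over the starts of Cdkn2a and Cdkn2b went from 233 to 359 and from 207 to 321 scaled reads, neither past the limit, and 0 of their peaks were opened or closed. At Mdm2 0 of 14 peaks were opened or closed, and the one over its start went from 286 to 277 scaled reads.

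**Figure D4:**
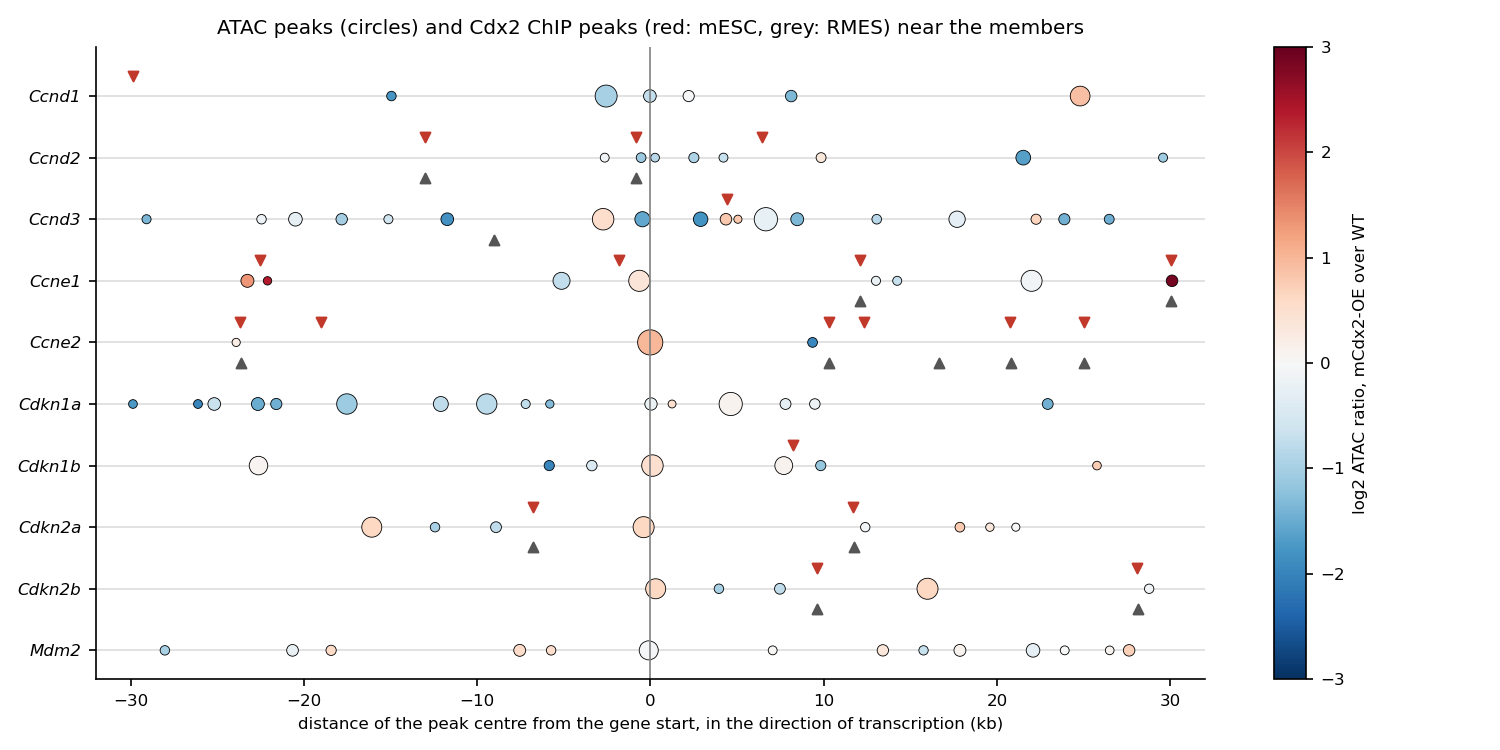
Peaks within 30 kb of each gene start (x axis, kb in the direction of transcription, 0 at the start), 1 row a gene. Circles are ATAC peaks, coloured by the log2 ratio of mCdx2-OE over WT and sized by their scaled reads, and triangles are Cdx2 ChIP peaks of mESCs (red) and RMES cells (grey). Ccne2 has the most ChIP peaks, 6 and 5, and Cdkn1a and Mdm2 have 0 in either.

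Cdx2 ChIP peaks in mESCs lay within 30 kb of 8 of the 10 genes, against 76.2% of 19599 genes, and in RMES cells within 30 kb of 6 of 10, against 65.2%. Ccne2 had 6 and 5 such peaks where the median gene had 2 and 1. Ccne1 had 4 and 2, Ccnd2 3 and 2, Cdkn2a and Cdkn2b the same 2 peaks in both cell types, and Ccnd3 1 and 1, at different places. Ccnd1 had 1 mESC peak, 29.9 kb upstream with 27 scaled reads in mCdx2-OE and 17 in rCdx2-OE, and 0 in RMES cells. Cdkn1a and Mdm2 had 0. The peak with the most reads, 20.8 kb downstream of the start of Ccne2 in an exon of Ints8, held 151 and 172 scaled reads in mESCs. Of the 18 mESC peaks 7 overlapped an ATAC peak, and of the 12 RMES peaks 3. The share of all ChIP peaks that do so was not counted, so whether these counts are high or low is not known. Both opened ATAC peaks of Ccne1 overlapped mESC ChIP peaks, the distant one being shown above with its single motif on the minus strand. The ChIP peak between Cdkn2a and Cdkn2b, with 69 and 63 scaled reads, overlapped none.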

How the data were processed

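RNA-seq, ATAC-seq and ChIP-seq values were the read counts per gene or peak that the authors deposited. Per the labels and the methods of the study, stranded mRNA reads were aligned with STAR 2.7.0d to mm10 or rn6 and counted by gene with featureCounts, RMES reads being split by allele, and ATAC and ChIP reads were aligned with Bowtie2 2.3.4.3 and counted in peaks called by MACS2 on merged libraries. The second mESC replicates counted properly paired fragments; this was not given for the first in the sources used here. ChIP columns named MFO and RFO were read as mCdx2 and rCdx2, by inference from their names. The authors' deposited counts were used unchanged.

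Counts were tested with edgeR 4.0.16 (limma 3.58.1, R 4.3.3): filterByExpr, TMM scaling, and a quasi-likelihood test with Benjamini-Hochberg adjustment over all genes tested. Each mESC model held all groups compared, and RMES alleles were compared with the library as a block. ATAC and ChIP counts were scaled to the mean library total, with a pseudocount of 1 and exact binomial 95% intervals, which cover counting error only. Alternatives were DESeq2 1.42.0, other scaling, no filter, thinning, a replicate block, each library left out, and other peak limits. The fit was also run on simulated counts with few changed genes, equally many up and down, which does not test the scaling. Genes beyond the 10 were named by size of change, at most 2 per direction and list, among those past 2-fold with a mean of at least 50 counts and one direction in both replicates, in mCdx2-OE against WT. For likeness, the nearest genes by root mean square difference were taken. The members and lists were chosen with earlier results of these data known. Rat ChIP peaks were not used here.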

Additional observations from a re-analysis of the deposited data

Results flagged for a closer look

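The response to induction differed between the mouse and the rat allele of RMES cells for 9 of the 10 genes, by the interaction test of edgeR (mouse minus rat, log2). In that test 62.1% of all 13605 genes were called. As above, the libraries labelled WT held Cdx2 mRNA, and the mitochondrial genome read differed with induction. The signed log2 change was higher on the rat allele for Cdkn2a (-3.33), Cdkn2b (-2.48), Cdkn1a (-0.82), Ccnd1 (-0.71), Ccne2 (-0.41) and Ccnd3 (-0.16). Of these, Ccnd1 and Ccnd3 fell on both alleles and fell less on the rat allele. The signed change was higher on the mouse allele for Mdm2 (0.96), Cdkn1b (0.40) and Ccne1 (0.28), of which Cdkn1b and Ccne1 fell on both alleles and fell less on the mouse allele.

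For 4 genes every induced mESC library lay above WT while every induced RMES library lay below the libraries labelled WT on the alleles named. These were Ccnd3 (log2 -0.31 on the mouse and -0.17 on the rat allele), Ccne2 (-0.38, mouse allele), Cdkn1b (-0.37 on the mouse and -0.80 on the rat allele) and Mdm2 (-0.42, rat allele). The difference between the cell types was not tested. How many of all genes lie on opposite sides of WT in this way was not counted, so whether 4 is many or few is not known. Scaled by total counts alone, the RMES values of Ccnd3 turned to 0.11 and 0.04, that of Ccne2 to 0.04 and that of Cdkn1b on the mouse allele to 0.05.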

How the results depend on the processing

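Of 1937 values of single members under an alternative, 1805 kept their direction and side of the threshold, 65 passed it, 35 no longer did and 32 changed sign, none of those 32 past the test; the cause was not tested. Without the 2-fold limit, calls against WT were 9 of 10 members and 11158 genes (mCdx2-OE), 9 and 11294 (rCdx2-OE), 10 and 11820 (mutants), 8 and 13823 (RMES mouse allele) and 9 and 12069 (rat allele). Tested against a fold of 1.5, 5 members were called in mCdx2-OE and 4 on the RMES mouse allele. The count of all genes under that test is not given here, so these counts have no share beside them. For mCdx2-OE against rCdx2-OE, where 3 genes were called, 1 was without a filter, 19 by DESeq2 and 1 with the replicate block. Variation among the 7 mutants only gave 3593 genes and 2 members. Change 1 gave 1 gene without a filter, 24 by DESeq2, 1 after thinning and 4 over the 14 mutant libraries, and change 2 gave 2 by DESeq2.

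Of ATAC peaks near the members, opened ones were 12 without scaling, 4 with median-ratio scaling, 1 with at least 100 reads and 0 within 10 kb, and closed ones 7 without scaling, 8 with at least 100 reads and 7 within 10 kb. ChIP peaks were 6 (mESC) and 3 (RMES) within 10 kb, and 7 in RMES with at least 40 scaled reads. Covering at least 50% of an ATAC peak left 1 mESC and 0 RMES ChIP peaks.

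Leaving out each library gave 3 to 4 members for mCdx2-OE, 4 to 4 for rCdx2-OE, 4 to 5 for the mutants, 0 to 0 for mCdx2-OE against rCdx2-OE, 6 to 8 for variation, 0 to 0 for changes 1 and 2, 3 to 6 for change 3, 2 to 4 and 5 to 5 on the RMES mouse and rat alleles, 9 to 9 between them and 5 to 7 for mutants against rCdx2-OE. Calls over all genes ranged from 0 to 1 for mCdx2-OE against rCdx2-OE and from 0 to 2 for change 1. They ranged from 5155 to 5515 for mCdx2-OE, 5333 to 5662 for rCdx2-OE and 4155 to 4507 for the mutants against WT. Variation gave 8529 to 9230, change 3 gave 4835 to 5933 and mutants against rCdx2-OE gave 6627 to 9047. On the RMES mouse and rat alleles they were 7219 to 7773 and 6016 to 6398, and between the alleles 7306 to 8241.

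Signs turned for mCdx2-OE Ccnd2 (-0.03 thinned). Over the 14 mutant libraries they turned for change 1 in Ccnd1 (-0.08), Ccnd3 (-0.01) and Ccne2 (-0.11), for change 2 in Ccnd1 (-0.09), Ccne2 (-0.07), Cdkn1b (0.01), Cdkn2a (0.09) and Cdkn2b (0.10), and for change 3 in Cdkn2b (0.09). With total counts only they turned in Ccnd3 (0.11), Ccne2 (0.04) and Cdkn1b (0.05) of the mouse allele and Ccnd3 (0.04) of the rat allele, whose Ccne2 gave -0.02 with the size factors of DESeq2 and -0.02 by DESeq2. Left-out libraries gave both signs, with these ranges. For mCdx2-OE Ccnd2 it was -0.02 to 0.36. For mCdx2-OE against rCdx2-OE they were -0.25 to 0.21 in Ccne2, -0.20 to 0.10 in Mdm2, -0.20 to 0.21 in Cdkn1b, -0.06 to 0.06 in Ccnd3 and -0.07 to 0.01 in Cdkn1a. For change 1 in Ccne2 it was -0.02 to 0.12, and for change 2 -0.11 to 0.02 in Cdkn2a and -0.05 to 0.01 in Cdkn1b. Rat-allele Ccne2 ran from -0.15 to 0.15, and mutants against rCdx2-OE from -0.19 to 0.01 in Ccne1 and from -0.05 to 0.22 in Cdkn1b.

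The replicate numbers of mESCs were not taken to pair the libraries, since the labels name no shared day or batch and not every pair correlated: deviations of same-numbered libraries correlated at 0.453 between mCdx2-OE and rCdx2-OE, from 0.0942 to 0.193 in the 21 pairs of mutants and from -0.14 to -0.0103 in the 21 pairs of a mutant with another group. With the replicate block 3, 4 and 4 members were called for mCdx2-OE, rCdx2-OE and mutants against WT, 0 between mCdx2-OE and rCdx2-OE, 8 for variation (adding Ccne1), 0, 0 and 4 for the 3 changes and 8 for mutants against rCdx2-OE (adding Ccnd3). Apart from mCdx2-OE against rCdx2-OE, counts of all genes with the block are not given here, so these have no share beside them. The block is a single term for all groups, so it cannot take up a shift shared by mCdx2-OE and rCdx2-OE alone. No paired analysis was possible in RMES cells because the induced libraries carry no replicate number. Low counts limit Ccnd2 and Cdkn2b most, and the ATAC and ChIP libraries have no replicate.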
